A study of Homo sapiens with 6 samples.

Results

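Cytochrome P450 genes are described here in human prostate epithelial cells transformed by arsenite and in the untreated line they came from. The genes are all those measured by a feature with a single symbol made of CYP, a family number, a subfamily letter and a gene number, leaving out the sterol synthesis gene CYP51A1. This gave 47 of the 18417 genes measured, each with 1 single-symbol feature on the array. RNA was measured on 6 single-colour arrays. The CAsE-PE group held 3 arrays of malignantly transformed cells, grown continuously in 5 µM sodium arsenite for 30, 33.5 and 35 weeks. The RWPE-1 group held 3 arrays of untreated immortal cells, at passages 18, 38 and 42. RWPE-1 is a single line made from normal adult prostate epithelium by immortalisation with papillomavirus DNA, and CAsE-PE is 1 descendant of it, so both carry the viral DNA. Both were kept in keratinocyte serum-free medium with pituitary extract and epidermal growth factor. The sources used here give no passage for the exposed cells and name no untreated control grown for the same time. The labels do not call the arrays separate cultures, so each p-value measures only how far these arrays spread, which may be technical.

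Cytochromes P450 are haem enzymes that insert an oxygen atom into their substrate. The CYP1, CYP2 and CYP3 families mostly clear drugs, pollutants and other foreign compounds, chiefly in liver, and several are switched on by the aryl hydrocarbon receptor AHR. The CYP4 family and a few relatives oxidise fatty acids and eicosanoids, and the remaining members make or break down steroids, bile acids, vitamin D and retinoic acid. In microsomes electrons reach them through the reductase POR and cytochrome b5, and in mitochondria through ferredoxin.

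Array medians lay between 91.7 and 92.3 intensity units in CAsE-PE and between 93.3 and 97.2 in RWPE-1. Values below are log2(intensity + 1), and differences are CAsE-PE minus RWPE-1 given with limma's standard error (SE) and n = 3 per group. A gene was called when its Benjamini-Hochberg adjusted p over all genes was under 0.05. The epithelial markers of the line were bright: all 7 measured of 9 lay outside the dimmest 33.3% of genes, and KRT5 averaged 11.93 in CAsE-PE and 12.05 in RWPE-1. Of these 7, the cadherin gene CDH1 was higher (0.39, SE 0.09, adjusted p = 0.0186), and the basal keratin genes KRT14 (−1.60, SE 0.31, adjusted p = 0.00748) and KRT15 (−1.77, SE 0.34, adjusted p = 0.00714) were lower. The mean level of these 7 markers was 9.79 to 10.12 over the CAsE-PE arrays and 10.31 to 10.51 over the RWPE-1 arrays. Of 7 hepatocyte markers, 5 were in the dimmest 33.3%, and ALB averaged 4.64 in CAsE-PE and 4.65 in RWPE-1. The mean of the 7 was 5.36 to 5.51 in CAsE-PE and 5.44 to 5.56 in RWPE-1. Of 5 leukocyte markers 0 were higher (limma, also 0 at an unadjusted p under 0.05) and 2 were lower, CD14 and CD68, with a list mean of 5.88 to 6.13 in CAsE-PE and 6.32 to 6.41 in RWPE-1. Of 6 fibroblast and 5 endothelial markers 0 were called (limma), with 1 fibroblast marker lower at an unadjusted p under 0.05. The part of these shifts in the P450 values was not tested. In bulk RNA, fewer cells of a type and less RNA per cell cannot be told apart.

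In all, 8 of the 47 cytochrome P450 genes were called, 17.0%, against a background of 17.7% of all genes. The fatty acid P450 gene CYP4X1 and the oxysterol hydroxylase gene CYP39A1 rose, which is 4.26% of the genes against 9.04% of all genes. The vitamin D hydroxylase gene CYP2R1, the epithelial P450 gene CYP2S1, the arachidonic acid epoxygenase gene CYP2J2, the retinoic acid hydroxylase gene CYP26B1, the sterol hydroxylase gene CYP27A1 and the ethanol-inducible gene CYP2E1 fell, 12.8% against 8.71%. Of the dimmest 33.3% of genes 2.62% rose and 6.65% fell. The 3 CAsE-PE arrays lay on 1 side of the 3 RWPE-1 arrays for 17 of 47 genes, 36.2%, where 38.9% of all genes did so. Taken over both directions together, the shares called and without overlap are near the background. By direction, 2 genes lay higher and 15 lower without overlap, 4.26% and 31.9%, against 16.1% and 22.8% of all genes. Of the 6139 dimmest genes 317 lay higher and 1601 lower without overlap. At an unadjusted p under 0.05, 2 genes were higher and 15 lower, 4.26% and 31.9%, against 15.1% and 17.3% of all genes. By the same measure 4.94% of the dimmest 33.3% of genes were higher and 17.9% lower. The median difference of the 47 genes was −0.14, against −0.06 over all genes and −0.12 over the dimmest 33.3% of genes. Differences were below 0 for 37 of 47 genes, 78.7%, against 59.5% of all genes and 75.5% of the dimmest 33.3%. In that dimmest part lay 31 of the 47 genes, of which 6 were called, 19.4% against 9.27% there, and 2 of the 16 brighter ones were called, 12.5% against 22.0%. CYP4X1 counted among the brighter ones through its CAsE-PE arrays. CYP2R1, CYP2J2 and CYP26B1 counted among the dimmest through their CAsE-PE arrays. Their RWPE-1 means of 6.95, 6.54 and 6.46 lay above 6.25, the bound of the dimmest 33.3%. The shares by brightness therefore depend in part on the differences themselves. No detection call came with the values, so a dim gene cannot be told from background, and its fold change may be understated.

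**Figure D1:**
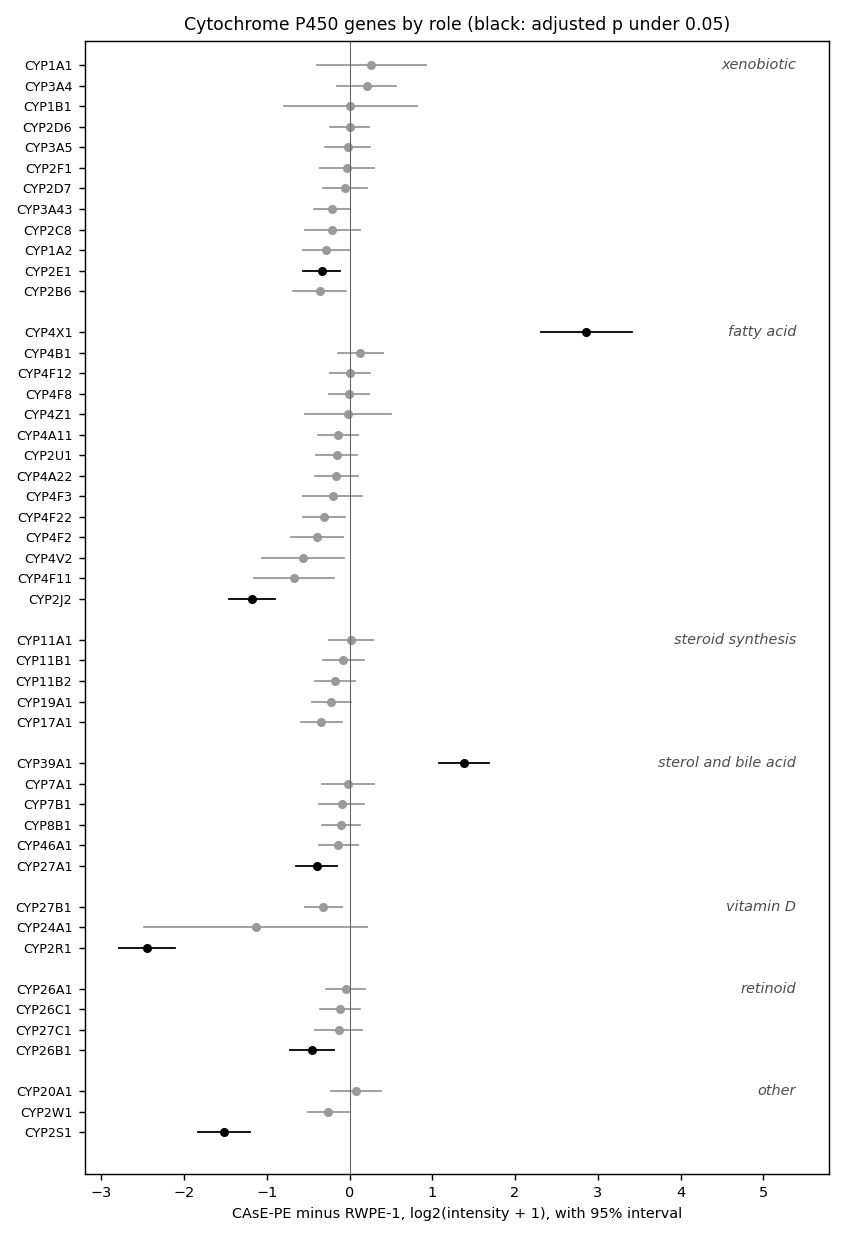
Difference in log2(intensity + 1) between CAsE-PE and RWPE-1 for each of the 47 cytochrome P450 genes, grouped by role, with 95% intervals from the limma fit. The 8 called genes are black. CYP4X1 stands at 2.86 and CYP39A1 at 1.38, and CYP2R1 at −2.45 lies at the other end.

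CYP4X1 encodes a CYP4 family enzyme that can turn the endocannabinoid anandamide into an epoxide. Its level was 7.86, 8.11 and 8.97 at 30, 33.5 and 35 weeks in CAsE-PE, against 5.34, 5.50 and 5.52 at passages 18, 38 and 42 in RWPE-1. All CAsE-PE arrays lay above all RWPE-1 arrays, with the highest at 35 weeks. The means were 8.31 ± 0.58 in CAsE-PE and 5.45 ± 0.10 in RWPE-1 (SD), a difference of 2.86 (SE 0.24, 95% interval 2.31 to 3.41) or 7.26-fold, with an adjusted p of 0.000101. Leaving out each array in turn gave differences of 2.53 to 3.09. Its RWPE-1 level lay under 6.25, the bound of the dimmest 33.3% of genes, where level and background cannot be told apart, so the fold may be understated.

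CYP39A1 encodes a hydroxylase that acts on an oxysterol made from cholesterol in brain. It had 6.04, 5.65 and 6.02 at 30, 33.5 and 35 weeks in CAsE-PE, against 4.40, 4.48 and 4.69 in RWPE-1. The groups did not overlap, although by its mean over all arrays this gene was among the dimmest 33.3%, as were CYP2R1, CYP2J2, CYP26B1, CYP27A1 and CYP2E1. The difference was 1.38 (SE 0.13, 95% interval 1.08 to 1.68), or 2.60-fold, with an adjusted p of 0.000212.

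Among the falls, that of CYP2R1 was the largest among the 47 genes. CYP2R1 encodes the enzyme that makes calcidiol, the circulating form of vitamin D. Levels were 4.81, 4.45 and 4.23 at 30, 33.5 and 35 weeks in CAsE-PE, against 6.81, 7.01 and 7.02 in RWPE-1. The RWPE-1 arrays were close to each other, and the CAsE-PE arrays lay far below them. The difference was −2.45 (SE 0.15, 95% interval −2.79 to −2.11), 5.45-fold, with an adjusted p of 1.86e-05.

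CYP2S1, an epithelial P450 gene outside the liver that dioxin induces, had 6.77, 7.18 and 7.03 in CAsE-PE, against 8.32, 8.52 and 8.71 in RWPE-1. Again the groups were apart, by more than the spread within either. It fell by 1.52 on the log2 scale (SE 0.14, 2.87-fold, adjusted p = 0.000162). CYP2J2, whose enzyme makes epoxides of arachidonic acid, had 5.39, 5.31 and 5.37 in CAsE-PE, against 6.66, 6.67 and 6.29 in RWPE-1. The passage 42 array was the lowest of RWPE-1 and still above all CAsE-PE arrays. CYP2J2 fell by 1.18 (SE 0.12, 2.27-fold, adjusted p = 0.000300).

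The other 3 falls were smaller, and each was lost when single arrays were left out. CYP26B1, whose enzyme breaks down retinoic acid, had 5.88, 6.20 and 5.95 in CAsE-PE, against 6.56, 6.35 and 6.48 in RWPE-1 (−0.45, SE 0.12, adjusted p = 0.0278). CYP27A1, whose mitochondrial enzyme oxidises the sterol side chain in bile acid synthesis, had 5.26, 5.47 and 5.25 in CAsE-PE, against 5.73, 5.62 and 5.83 in RWPE-1 (−0.40, SE 0.11, adjusted p = 0.0335). CYP2E1, whose enzyme oxidises ethanol and small solvents, had 5.55, 5.73 and 5.60 in CAsE-PE, against 5.91, 5.98 and 6.0 in RWPE-1 (−0.34, SE 0.10, adjusted p = 0.0448). Groups did not overlap for any of the 3 genes. The call of CYP26B1 was lost without the array of passage 18 (adjusted p = 0.0931), passage 38 (0.0539), passage 42 (0.0610), 30 weeks (0.0659) or 35 weeks (0.0970), and that of CYP27A1 without the same arrays (0.0876, 0.0654, 0.0772, 0.0715 and 0.120). That of CYP2E1 was lost without any 1 array (adjusted p of 0.0546 without 33.5 weeks to 0.143 without passage 38), and after quantile normalisation (0.0779) or centring on array medians (0.0687). CYP4X1, CYP39A1, CYP2R1, CYP2S1 and CYP2J2 were called without each array in turn. With 1 array left out, 10.3% to 17.1% of all genes were called, against 17.7% with all arrays.

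**Figure D2:**
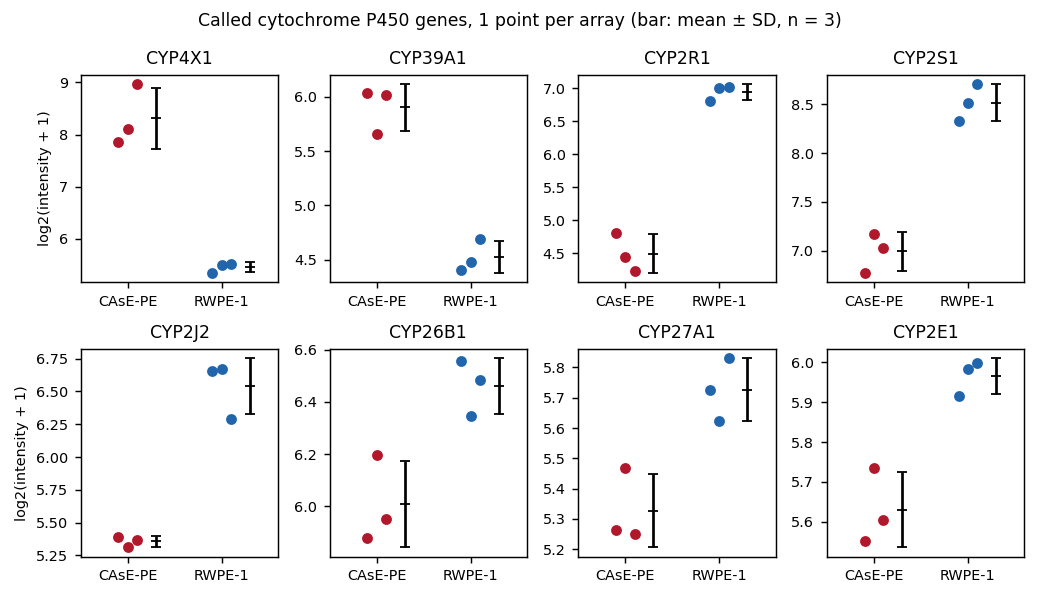
Level of the 8 called cytochrome P450 genes as log2(intensity + 1), with 1 point per array and the mean ± SD (n = 3) beside the points, CAsE-PE left and RWPE-1 right. Axes are scaled to each gene and do not start at 0. No gene has overlapping groups, and the gap is widest for CYP4X1 and CYP2R1.

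The promoters of the 5 genes called in every fit with 1 array left out, and of CYP1A1, the standard AHR target, are shown so that the sequence at the start of the most changed genes can be read beside their values. Each runs from 250 bases before to 50 after the first start that the RefSeq promoter table (GRCh38.p14) lists for the gene, 5′ to 3′ on the gene's strand. For CYP2R1, with 3 listed starts, and CYP2J2, with 1, this start lies 772 and 42439 bases inside the annotated gene, and for the other genes at its outer end. CYP4X1 has 2 listed starts, of which only the first was read. Which start these cells use was not tested. Capitals mark matches, on either strand, to the AHR core GCGTG, the antioxidant core TGACNNNGC, the TATA box TATAAA, the GC box GGGCGG or the AP-1 site TGACTCA.
CYP4X1, chr1:46961114-46961413, plus strand: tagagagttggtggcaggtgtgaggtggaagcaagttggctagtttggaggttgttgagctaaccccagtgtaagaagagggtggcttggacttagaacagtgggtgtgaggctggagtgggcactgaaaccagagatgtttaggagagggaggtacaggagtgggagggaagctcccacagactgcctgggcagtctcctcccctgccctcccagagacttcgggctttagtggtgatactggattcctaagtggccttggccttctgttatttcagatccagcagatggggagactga
CYP39A1, chr6:46652769-46653068, minus strand: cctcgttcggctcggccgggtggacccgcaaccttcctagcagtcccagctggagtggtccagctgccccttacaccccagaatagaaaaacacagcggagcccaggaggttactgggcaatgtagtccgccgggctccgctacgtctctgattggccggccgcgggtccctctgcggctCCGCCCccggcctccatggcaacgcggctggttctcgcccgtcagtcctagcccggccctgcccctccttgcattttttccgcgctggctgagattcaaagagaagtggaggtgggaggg
CYP2R1, chr11:14891622-14891921, minus strand: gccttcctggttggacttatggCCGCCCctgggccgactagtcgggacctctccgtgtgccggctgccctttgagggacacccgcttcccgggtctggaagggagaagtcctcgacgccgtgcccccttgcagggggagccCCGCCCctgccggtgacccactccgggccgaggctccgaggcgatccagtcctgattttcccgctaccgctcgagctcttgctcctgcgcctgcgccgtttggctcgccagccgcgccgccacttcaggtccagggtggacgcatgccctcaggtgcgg
CYP2S1, chr19:41192969-41193268, plus strand: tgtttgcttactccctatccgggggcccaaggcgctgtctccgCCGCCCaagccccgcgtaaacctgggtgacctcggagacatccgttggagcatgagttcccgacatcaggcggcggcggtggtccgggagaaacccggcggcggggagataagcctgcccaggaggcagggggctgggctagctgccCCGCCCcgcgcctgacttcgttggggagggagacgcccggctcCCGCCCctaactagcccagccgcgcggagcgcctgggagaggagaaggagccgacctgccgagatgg
CYP2J2, chr1:59926724-59927023, minus strand: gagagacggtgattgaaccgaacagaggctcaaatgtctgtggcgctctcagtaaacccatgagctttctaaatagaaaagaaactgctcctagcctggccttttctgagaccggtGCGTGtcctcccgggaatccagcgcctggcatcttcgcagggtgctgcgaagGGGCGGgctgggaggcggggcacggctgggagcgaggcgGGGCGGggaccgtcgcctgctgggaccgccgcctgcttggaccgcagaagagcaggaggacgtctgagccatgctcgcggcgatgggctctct
CYP1A1, chr15:74725479-74725778, minus strand: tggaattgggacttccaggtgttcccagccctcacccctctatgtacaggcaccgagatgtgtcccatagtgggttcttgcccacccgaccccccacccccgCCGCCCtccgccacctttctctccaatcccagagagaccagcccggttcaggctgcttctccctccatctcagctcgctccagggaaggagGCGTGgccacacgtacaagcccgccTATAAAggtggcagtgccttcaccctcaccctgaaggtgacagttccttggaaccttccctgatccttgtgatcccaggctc

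These windows differ in their CpG content. CYP4X1, read at the first of its 2 listed starts, has 1 CpG in 300 bases and a match to 0 of the 5 motifs. By contrast CYP39A1 has 23 CpGs, CYP2R1 28, CYP2S1 29 and CYP2J2 24, each with 1 to 3 GC boxes. Over the 32 cytochrome P450 genes with a promoter entry, the median was 6 CpGs, against 14 over 27305 promoters. The 8 called genes had a median of 23.5 and the 24 others 3.5, where called genes of the whole array had 25 and genes not called 22. The AHR core was in the window of CYP2J2, starting at position −134 from the start, and of CYP1A1, at −57, where a TATA box starts at −32. It was present in 9 of the 32 windows, 28.1%, against 36.3% of all promoters. A TATA box was in 9 of 32, 28.1% against 12.0%, a GC box in 14, 43.8% against 44.6%, the antioxidant core in 5, 15.6% against 13.6%, and the AP-1 site in 0 against 4.92%. These matches describe letters and not sites.

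Enzymes of foreign compound metabolism made up 12 of the genes, from a list of 19, of which 0 rose (limma, also 0 at an unadjusted p under 0.05), 1 fell and 11 did not pass. The share called was 8.33%, against 17.7% of all genes. CYP1A1, whose enzyme oxidises polycyclic hydrocarbons, had 7.28, 6.15 and 6.0 at 30, 33.5 and 35 weeks in CAsE-PE, against 6.42, 6.15 and 6.06 in RWPE-1. The 30-week array stood above the rest, and the other CAsE-PE arrays lay within or below the RWPE-1 range. The group difference was 0.26 (SE 0.29, 95% interval −0.40 to 0.92, adjusted p = 0.558), and −0.14 without the 30-week array. CYP1B1, a second AHR target that also hydroxylates oestrogens, had 7.82, 7.24 and 7.56 in CAsE-PE, against 7.05, 7.03 and 8.51 in RWPE-1. Its passage 42 array was the highest of all, so the groups overlapped (0.01, SE 0.35, adjusted p = 0.989). With that array left out the difference was 0.50 (adjusted p = 0.0845). The liver enzyme gene CYP3A5, which serves drug metabolism, had 4.67, 4.78 and 5.07 in CAsE-PE, against 4.86, 4.83 and 4.88 in RWPE-1, with a difference of −0.02 (95% interval −0.29 to 0.25), whose sign turned under other scalings. The other members of this role that did not pass ranged from −0.36 for CYP2B6 to 0.21 for CYP3A4. CYP2D7 is annotated as a transcribed pseudogene, and the CYP2D, CYP3A, CYP4A and CYP4F genes resemble each other in sequence, so values of single genes in these subfamilies are uncertain.

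Fatty acid and eicosanoid enzymes were 14 genes, of which CYP4X1 rose, CYP2J2 fell and 12 did not pass. The share called was 14.3%, against 17.7% of all genes. CYP4F11, whose enzyme hydroxylates the end of long fatty acids, had 7.75, 6.97 and 7.01 in CAsE-PE, against 7.71, 7.83 and 8.20 in RWPE-1. The 30-week array lay inside the RWPE-1 range and the later arrays below it. The difference was −0.67 (SE 0.21, adjusted p = 0.0596), and −0.93 (adjusted p = 0.00420) without the 30-week array. CYP4V2, a fatty acid hydroxylase gene of the retina and other tissues, had 6.65, 7.52 and 7.52 in CAsE-PE, against 7.95, 7.67 and 7.74 in RWPE-1. All CAsE-PE arrays were lower and the 30-week array lowest, with a difference of −0.56 (SE 0.22, adjusted p = 0.114). The leukotriene hydroxylase gene CYP4F3 differed by −0.20 (SE 0.16), CYP2U1 by −0.16 (SE 0.11) and CYP4F12 by 0.00 (SE 0.11), and none of them passed. The sign of CYP4F12 turned when single arrays were left out. Differences of the 12 genes that did not pass reached from −0.67 to 0.13.

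Vitamin D enzymes were 3 genes with differences below 0, of which 1 passed, 33.3% against 17.7% of all genes. Beside CYP2R1, CYP27B1 makes the active hormone calcitriol and CYP24A1 breaks it down. CYP27B1 had 7.39, 7.38 and 7.39 in CAsE-PE, against 7.77, 7.59 and 7.76 in RWPE-1. The CAsE-PE arrays were nearly equal and all below RWPE-1, and the difference of −0.32 (SE 0.10) had an adjusted p of 0.0556. It passed after quantile normalisation (0.0358), with a pseudocount of 16 (0.0397) and with the dimmest 33.3% of genes left out (0.0479). CYP24A1 had 5.97, 5.74 and 7.24 in CAsE-PE, against 8.84, 7.30 and 6.22 in RWPE-1. Both groups were widely spread and overlapped (−1.14, SE 0.60, 95% interval −2.49 to 0.21, adjusted p = 0.223). The vitamin D receptor gene VDR, through which calcitriol induces CYP24A1, differed by 0.24 (SE 0.11, adjusted p = 0.147).

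Of the steroid, sterol and retinoid enzymes only CYP39A1, CYP27A1 and CYP26B1 were called. By role this is 0% of steroid synthesis, 33.3% of sterol and bile acid and 25.0% of retinoid genes, against 17.7% of all genes. Of 5 steroid synthesis genes 0 passed in either direction (limma), with 0 higher and 1 lower at an unadjusted p under 0.05. CYP17A1, of androgen synthesis, had 4.93, 5.05 and 4.86 in CAsE-PE, against 5.24, 5.18 and 5.43 in RWPE-1 (−0.34, SE 0.11, adjusted p = 0.0620). CYP19A1, the aromatase gene, had 4.46, 4.59 and 4.59 in CAsE-PE, against 4.64, 4.83 and 4.84 in RWPE-1 (−0.22, SE 0.10, adjusted p = 0.176). For both genes every CAsE-PE array lay below every RWPE-1 array, and both lay in the dimmest 33.3%. The 5 steroid synthesis differences reached from −0.34 to 0.02. Of 6 sterol and bile acid genes 1 rose, 1 fell and 4 did not pass, among them the oxysterol hydroxylase gene CYP7B1 (−0.09, SE 0.12), and these 4 lay between −0.14 and −0.02. Of 4 retinoid genes 0 rose (limma, also 0 at an unadjusted p under 0.05) and 1 fell. CYP26A1, another gene whose enzyme degrades retinoic acid, differed by −0.05 (SE 0.10, 95% interval −0.28 to 0.19), a sign that turned with scaling. Of the remaining 3 genes, CYP2S1 fell, CYP2W1 differed by −0.26 (SE 0.11, adjusted p = 0.139) and CYP20A1, which has no known substrate, by 0.08 (SE 0.13), the last turning sign without the passage 42 array.

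Within the groups, a few cytochrome P450 genes varied more than most genes. The range of CYP24A1 over the RWPE-1 arrays was 2.62, which 0.00543% of all genes exceeded, and that of CYP1B1 was 1.48, which 0.228% exceeded. Over the CAsE-PE arrays the ranges were 1.5 for CYP24A1, 1.28 for CYP1A1, 1.11 for CYP4X1 and 1.03 for CYP4Z1, exceeded by 0.299%, 0.57%, 1.05% and 1.47% of genes. In a limma model with passage and weeks as trends, which leaves 2 residual degrees of freedom, CYP1A1 passed for weeks with a slope of −0.27 per week (adjusted p = 0.0319), where 0.25% of all genes passed. This call rests on the 30-week array, without which the slope between the later arrays was −0.10 (adjusted p = 1.00) and 0.038% of all genes passed. At an unadjusted p under 0.05 the weeks trend held for 5 genes, the others being CYP4V2, CYP4X1, CYP4F11 and CYP2R1, which is 10.6% against 11.3% of all genes. For passage 0 of the 47 genes passed (limma), against 0.0217% of all genes, and 3 had an unadjusted p under 0.05, 6.38% against 5.82% of all genes. Without the passage 38 array, where the passage trend is a difference between 2 arrays, CYP1B1 and CYP24A1 passed with 0.966% of all genes, and without the passage 18 array CYP1B1 passed with 0.364%. CYP24A1 also passed for passage without any 1 CAsE-PE array, with 0.109% of all genes, and for weeks, with CYP4X1 and CYP1A1, without the 33.5-week array, with 0.901%. Thromboxane synthase TBXAS1, a P450 gene outside the naming rule and named here after its values were seen, had 7.06, 5.86 and 5.98 at 30, 33.5 and 35 weeks in CAsE-PE, against 5.63, 5.71 and 5.85 in RWPE-1. As with CYP1A1, its 30-week array stood above the other 5.

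**Figure D3:**
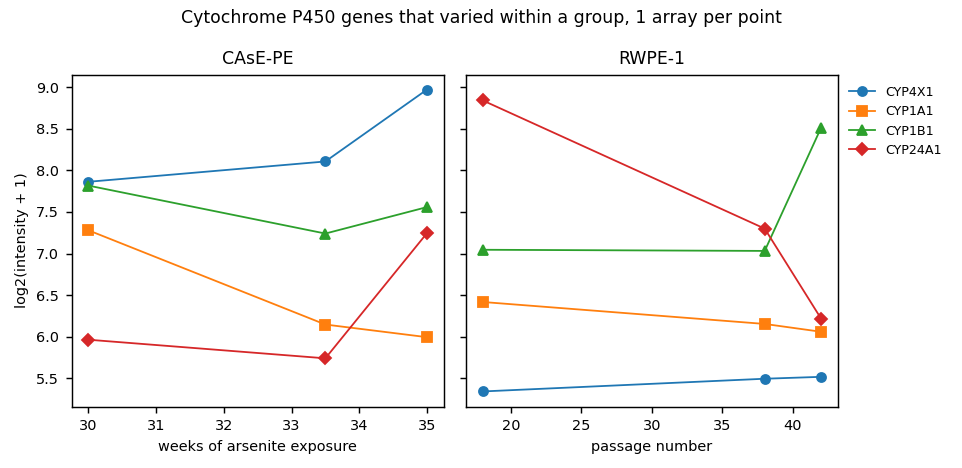
Level as log2(intensity + 1) of CYP4X1, CYP1A1, CYP1B1 and CYP24A1 on each array, against weeks of exposure in CAsE-PE (left) and passage in RWPE-1 (right), 1 array per point. CYP24A1 has 8.84 at passage 18 and 6.22 at passage 42, and CYP1A1 has 7.28 at 30 weeks and 6.0 at 35 weeks.

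Many cytochrome P450 genes lie beside relatives, and CYP4X1 and CYP2S1 each have relatives beside them that did not pass the test. By RefSeq gene order, 26 of the 47 genes lay in 8 groups with at most 10 other measured genes between consecutive members. On chromosome 1, CYP4X1 (2.86) lies between CYP4A11 (−0.14, SE 0.11) and CYP4Z1 (−0.02, SE 0.23), with CYP4B1 (0.13) and CYP4A22 (−0.16) beyond, and these 4 did not pass. The nearest 5 measured genes on each side that are not among the 47, pseudogenes included, had a median difference of −0.17, and 0 of these 10 were called (limma), with 5 at an unadjusted p under 0.05. On chromosome 19, CYP2S1 (−1.52) lies next to CYP2F1 (−0.04, SE 0.14), with CYP2B6 (−0.36, SE 0.14) farther on the same side, and these did not pass. Its 10 neighbours, 3 CYP2 pseudogenes among them, had a median of −0.12 and a lowest value of −1.02, and 2 of them fell. The 6 CYP4F genes of chromosome 19 ranged from −0.67 for CYP4F11 to 0.00 for CYP4F12. The 10 neighbours had a median of −0.07 for CYP39A1 on chromosome 6, where 2 rose and 1 fell. They had −0.07 for CYP2R1 on chromosome 11, where 1 fell, and 0.19 for CYP2J2 on chromosome 1, where 4 rose and 1 fell. CYP2D6 (0.00, SE 0.10) and CYP2D7 (−0.06, SE 0.12) lie on chromosome 22 among neighbours with a median of 0.27, of which 3 of 10 rose. For these neighbour counts, the background is that 9.04% of all genes rose and 8.71% fell. At an unadjusted p under 0.05 (limma), 15.1% of all genes were higher and 17.3% lower.

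**Figure D4:**
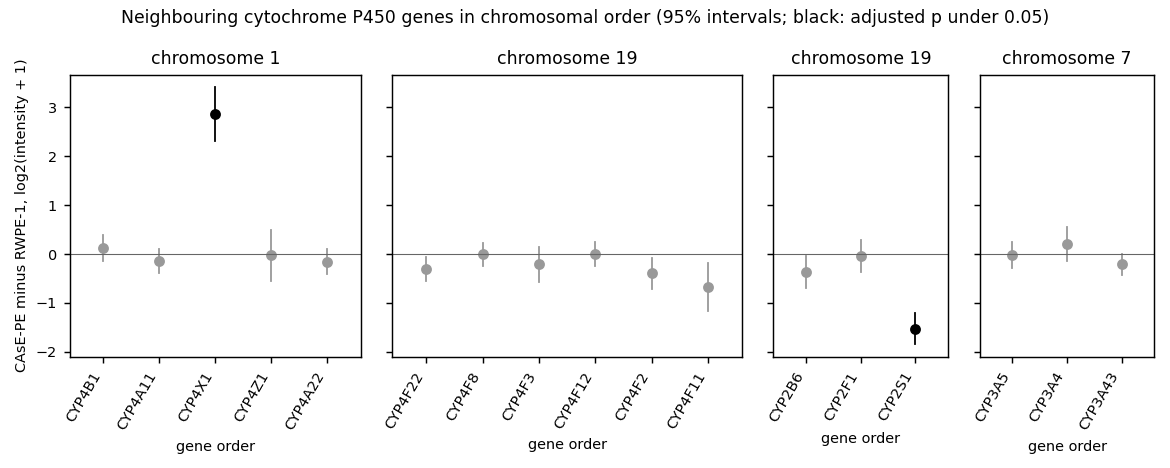
Difference in log2(intensity + 1) between CAsE-PE and RWPE-1, with 95% intervals, for 4 groups of neighbouring cytochrome P450 genes in chromosomal order (not to scale in distance). Called genes are black. CYP4X1 on chromosome 1 and CYP2S1 on chromosome 19 stand apart from the other P450 genes of their groups, which lie between −0.36 and 0.13.

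Partner genes of cytochromes P450 were read from lists of 109 genes, 90 of them measured. The lists took in electron donors, haem synthesis, regulators, other AHR targets, conjugating and epoxide-opening enzymes, other steroid genes and 3 P450 genes outside the naming rule. Of the 90 genes 12 rose and 2 fell. Shares of 13.3% and 2.22% stand against 9.04% and 8.71% of all genes, and the median was −0.01. Of 8 electron donor genes 1 rose, 12.5%, and 0 fell (limma, also 0 at an unadjusted p under 0.05). It was the cytochrome b5 gene CYB5A, with 9.91, 10.01 and 10.30 in CAsE-PE, against 9.64, 9.55 and 9.36 in RWPE-1 (0.56, SE 0.13, adjusted p = 0.0182). The reductase gene POR, which feeds all microsomal P450 enzymes, differed by −0.13 (SE 0.11, adjusted p = 0.410). Of 8 haem synthesis genes 1 rose, 12.5%, and 0 fell (2 lower at an unadjusted p under 0.05). FECH, which puts iron into haem, had 7.39, 7.50 and 7.42 in CAsE-PE, against 6.95, 6.86 and 6.57 in RWPE-1 (0.64, SE 0.12, adjusted p = 0.00617).

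Among 17 regulators 3 rose, 17.6% against 9.04% of all genes, and 0 fell, against 8.71% (3 lower at an unadjusted p under 0.05). The fatty acid receptor gene PPARA, which induces CYP4A genes in rodent liver, had 7.37, 7.10 and 7.13 in CAsE-PE, against 6.25, 6.62 and 6.64 in RWPE-1 (0.70, SE 0.14, adjusted p = 0.00767). Its relatives PPARD (0.53, SE 0.13) and PPARG (0.44, SE 0.11) rose as well. AHR had 10.33, 9.88 and 10.68 in CAsE-PE, against 9.79, 9.27 and 9.82 in RWPE-1, without overlap, and did not pass (0.67, SE 0.21, adjusted p = 0.0596). The 4 other AHR targets measured all counted among the brighter genes, of which 12.2% rose and 9.74% fell. Of these 4 targets 2 rose, 50.0%, and 0 fell (1 lower at an unadjusted p under 0.05). They were the aldehyde dehydrogenase gene ALDH3A1 (1.16, SE 0.28, adjusted p = 0.0209) and NQO1 (0.76, SE 0.11), which is a target of NRF2 too. ALDH3A1 had 9.24, 8.57 and 9.04 at 30, 33.5 and 35 weeks in CAsE-PE, against 7.73, 7.22 and 8.43 in RWPE-1. Unlike CYP1A1, none of its CAsE-PE arrays stood in the RWPE-1 range.

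Conjugating and epoxide-opening enzymes, which act after P450, held 5 rises and 2 falls among 37. These are 13.5% and 5.41%, against 9.04% and 8.71% of all genes. GSTK1, a glutathione transferase gene, had 8.45, 8.67 and 8.75 in CAsE-PE, against 7.62, 7.43 and 7.57 in RWPE-1 (1.09, SE 0.11, adjusted p = 0.000321). GSTM3 rose by 0.98 (SE 0.22), and its relative GSTM1 fell by 1.16 (SE 0.29, adjusted p = 0.0255). GSTM1 had 5.91, 5.60 and 5.70 in CAsE-PE, against 7.68, 6.74 and 6.27 at passages 18, 38 and 42 in RWPE-1. Without the passage 18 array its difference was −0.77 (adjusted p = 0.0203). Its passage trend did not pass (limma, adjusted p = 0.110). EPHX4, an epoxide hydrolase family gene, fell by 1.00 (SE 0.22). GSTM genes are alike in sequence, so their single values are uncertain. Of 13 other steroid genes 0 passed (limma), with 1 higher and 4 lower at an unadjusted p under 0.05. The call of CYB5A was lost without the array of passage 38 (adjusted p = 0.0598), passage 42 (0.0519) or 35 weeks (0.0669), and that of PPARD without the same arrays (0.0818, 0.0648 and 0.0722). That of ALDH3A1 was lost without passage 18 (0.0581), passage 38 (0.0654), 30 weeks (0.0523) or 35 weeks (0.0718), that of GSTM1 without passage 38 (0.0605), 33.5 weeks (0.0728) or 35 weeks (0.0779), and that of EPHX4 without passage 38 (0.0563).

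**Figure D5:**
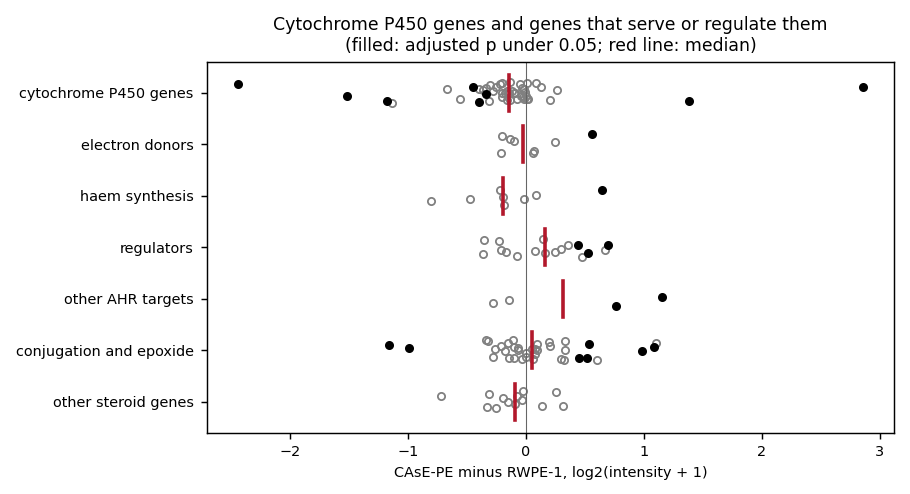
Difference in log2(intensity + 1) between CAsE-PE and RWPE-1 for the cytochrome P450 genes and for lists of partner genes, 1 point per gene. The lists hold genes that serve, regulate or follow P450 enzymes, other AHR targets and other steroid genes. Called genes are filled, and a red line gives the median of each list. The P450 genes reach from −2.45 to 2.86, and no other list shown reaches beyond −1.16 or 1.16.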

How the data were processed

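Total RNA of 6 cell samples was labelled with an Ambion whole-transcript kit, per the labels. For each array the authors deposited an intensity for every feature. These intensities (33252 features, 2.25 to 16617) were taken as linear because of their range. Background correction, summarisation and normalisation: not given in the sources used here.

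Feature names came from GEO's platform annotation, where 19460 features had 1 symbol, 1754 several and 12038 were not listed. RefSeq (GRCh38.p14) held 19429 of the single-symbol features and changed 0 symbols. Each of 18417 genes was represented by its brightest feature. Since the table was linear, log2(intensity + 1) was used, as the design foresaw. Groups followed the phenotype label. The test was limma 3.58.1 under R 4.3.3, with lmFit and eBayes, two-sided, and Benjamini-Hochberg adjustment over all genes. A second model held passage and weeks. The steps were tested on simulated data. Tables and plots used Python 3.11.15, numpy 2.4.6, pandas 2.3.3 and matplotlib 3.10.9.

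The genes and lists were chosen with earlier results of these data known. Named genes were all called P450 genes, 22 P450 genes with textbook roles (some in both sets), and up to 2 rises and 2 falls per list of partner genes. PPARG, VDR, TBXAS1, KRT5, KRT14, KRT15, CDH1, ALB, CD14, CD68, POR, AHR and further P450 genes were named after their values were seen. Neighbour groups, the level bounding the dimmest genes and promoter motifs were chosen after the data were seen. Alternatives covered scaling, a filter on dim genes, the pseudocount, the feature rule, variance models, array weights and each array left out. With 3 arrays per group, their number limits the precision. No scan date or batch was given in the sources used here.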

Additional observations from a re-analysis of the deposited data

How the results depend on the processing

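CYP4X1, CYP39A1, CYP2R1, CYP2S1 and CYP2J2 kept their direction and call under every alternative in which they were tested; with the dimmest 33.3% of genes left out, CYP39A1, CYP2R1 and CYP2J2 were not tested. Rises numbered 2, and 1 with that filter, which CYP4X1 passed through its CAsE-PE level, so its place there is no separate support. Falls numbered 6, with 2 under that filter, 11 with array weights and 3 to 5 with single arrays left out. Of the partner genes 12 rose, with 24 under array weights and 5 to 13 with single arrays left out, and 2 fell, with 6 after quantile normalisation, 1 with the filter, 4 with a pseudocount of 16, 12 with array weights and 0 to 5 with single arrays left out. The share of all genes called moved as well, from 17.7% in the main fit to 29.0% with array weights. It was 23.0% of the genes tested with the filter, and 10.3% to 17.1% with single arrays left out. Passage trends numbered 0 to 2 and weeks trends 0 to 3 with single arrays left out, alternatives chosen after seeing the data that leave 1 residual degree of freedom.

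Differences near 0 changed sign. CYP1B1 was −0.0361 after quantile normalisation and −0.0014 with a pseudocount of 16. CYP3A5 was 0.0014 after quantile normalisation, 0.0251 after centring and 0.0493 with array weights. CYP26A1 was 0.0023 and 0.0019 after quantile normalisation and centring. With single arrays left out, CYP1A1 ranged from −0.14 to 0.50, CYP1B1 from −0.24 to 0.50, CYP3A5 from −0.14 to 0.0628, CYP4F12 from −0.0665 to 0.0842, CYP20A1 from −0.0335 to 0.21 and CYP26A1 from −0.11 to 0.0168. The cause was not tested. After centring, the median of all genes was −0.01 and 31 of the 47 P450 differences lay below 0, against −0.06 and 37 without it. No paired analysis was possible because the labels name arrays by passage or weeks and give no replicate numbers that the groups share.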

Other observations

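Features that match several P450 genes were left out of the 47 genes and fitted with all features of the table. Of these 7 features 0 passed (limma), 0 were higher and 3 lower at an unadjusted p under 0.05, and the lowest adjusted p was 0.0962. The steroid hydroxylase gene CYP21A2 and its pseudogene shared 3 features, with differences of −0.30, −0.31 and −0.31, of which the last 2 held identical values. The 2 features of the nicotine-metabolising CYP2A genes differed by −0.09 and 0.06, the feature of the fetal liver gene CYP3A7 by −0.13, and a second feature of CYP2D6 by −0.23 (SE 0.13).

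No pseudogene or antisense RNA of the family that had a feature of its own passed, with adjusted p-values of 0.0754 or more. CYP2B7P had 4.57, 4.38 and 4.29 in CAsE-PE, against 4.68, 4.75 and 4.75 in RWPE-1 (−0.31, SE 0.11, adjusted p = 0.0754). CYP4Z2P, a pseudogene related to CYP4Z1, differed by −0.19 (SE 0.16), and CYP1B1-AS1, an antisense RNA of CYP1B1, had 4.59, 4.53 and 4.09 in CAsE-PE, against 4.45, 4.32 and 4.43 in RWPE-1. At passage 42, where CYP1B1 was highest, this RNA was within the range of the other arrays. CYP51A1, of cholesterol synthesis, had a difference of 0.19 (SE 0.14, adjusted p = 0.375).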
